A study of Mus musculus with 6 samples.

Results

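RNA of 10 genes that mark the mural cells of blood vessels was followed in mouse hearts. The genes were taken as a list of smooth muscle and pericyte markers. They are 8 genes of the smooth muscle contractile apparatus (Acta2, Tagln, Myh11, Cnn1, Myl9, Mylk, Smtn and Lmod1) and 2 genes of pericytes (Rgs5 and Pdgfrb), out of 29385 genes in the deposited tables. All 10 passed the filter on low reads, which kept 16804 genes for testing.

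Poly(A) RNA came from 6 heart samples in 3 groups of 2. The RH/+ vehicle group has the genotype Myh6RH/+ and received vehicle. The RH/RQ vehicle group has the genotype Myh6RH/RQ and received vehicle. The treated group has the genotype Myh6RH/RQ and received AAV-hpCas13d, an adeno-associated virus that carries a form of the RNA-cutting enzyme Cas13d. Dosing was in newborns and hearts were taken 12 months later. Myh6 encodes the alpha myosin heavy chain of heart muscle, and the labels name the RH and RQ alleles without spelling them out. All 6 samples carry the RH allele, so RH/+ is not an unaltered control, and hearts with unaltered Myh6 or RH/+ hearts given the virus were not analysed here. The promoter that drives the enzyme and its guide are not given in the sources used here. Nothing in the labels tells if the 2 samples of a group are 2 animals: their titles are numbers that share the last 3 digits and differ in the first, and every p-value here therefore rests on a spread that may be technical.

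Mural cells wrap the endothelial tube: smooth muscle cells form the wall of arteries and arterioles, and pericytes sit on capillaries. Smooth muscle contracts when calcium activates myosin light chain kinase, which phosphorylates the light chain of smooth muscle myosin and lets it pull on actin filaments. Most genes of this apparatus are activated by serum response factor and its partner myocardin, which act through a DNA element called the CArG box. Acta2 is also known to be made by myofibroblasts, the activated fibroblasts of healing and fibrotic tissue, and by heart muscle cells before birth.

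Acta2 was the only member whose level passed the test in any comparison, so the sequences near its start and at the end of its coding region are shown first. A RefSeq window of 250 bases upstream of the start (GRCm38.p6) was at hand for 7 of the 10 members, and a CArG box was searched in each. The box is 10 bases long, CC and GG around 6 bases that are each A or T, and it reads as the same pattern on both strands. An exact box was in 482 of 32851 windows of this length (1.47%), and a box with up to 1 of the 6 middle bases changed to G or C was in 2823 (8.59%). Acta2 had 0 exact boxes and 2 with a changed base, which begin 84 and 34 bases before the RefSeq start. Myl9 had an exact box at 161 bases and a changed one at 99. The striated muscle actins Acta1 and Actc1 had an exact box at 73 and 47 bases. Capitals mark the box in these 30-base stretches, each read along the strand of its gene, and in GENCODE M21 both Acta2 stretches fall in the first, untranslated exon because that annotation starts the gene further upstream.
Acta2, 84 bases before the start, chr19:34255438-34255467 minus: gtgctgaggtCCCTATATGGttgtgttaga
Acta2, 34 bases before the start, chr19:34255388-34255417 minus: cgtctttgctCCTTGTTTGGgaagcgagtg
Myl9, 161 bases before the start, chr2:156775293-156775322 plus: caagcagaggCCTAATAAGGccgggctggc
Myl9, 99 bases before the start, chr2:156775355-156775384 plus: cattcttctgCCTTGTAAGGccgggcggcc
Acta1, 73 bases before the start, chr8:123894829-123894858 minus: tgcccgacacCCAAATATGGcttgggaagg
Actc1, 47 bases before the start, chr2:114052903-114052932 minus: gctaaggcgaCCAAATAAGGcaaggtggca
The upstream Acta2 box has the same 10 letters as a changed box 175 bases before the start of Actc1. No box of either kind was found in the windows of Cnn1, Mylk, Smtn, Lmod1 and Rgs5, which says only that these letters are not in those 250 bases. The windows of Mylk (chr16:34784700-34784949) and Smtn (chr11:3539293-3539542) lie wholly inside these genes in GENCODE M21. The bases before the GENCODE start of either gene were not searched.

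Acta2 belongs to a family of nearly identical actins, so its reads could be mistaken for those of a relative. Its coding sequence is 85.4% identical to that of Acta1 (skeletal muscle actin), 84.2% to Actg2 (enteric smooth muscle actin), 82.8% to Actb and 81.5% to Actg1 (the cytoplasmic actins), and 82.5% to Actc1 (cardiac actin). The last 60 coding bases, in the final exon, show how the family differs, with capitals for bases that are not those of Acta2 (GENCODE M21, GRCm38, all on the minus strand).
Acta2, chr19:34241667-34241726: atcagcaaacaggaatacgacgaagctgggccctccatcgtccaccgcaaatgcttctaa
Acta1, chr8:123892009-123892068: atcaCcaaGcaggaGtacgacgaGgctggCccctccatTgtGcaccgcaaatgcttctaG
Actg2, chr6:83512985-83513044: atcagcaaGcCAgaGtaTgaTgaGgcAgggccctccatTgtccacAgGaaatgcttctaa
Actc1, chr2:114047466-114047525: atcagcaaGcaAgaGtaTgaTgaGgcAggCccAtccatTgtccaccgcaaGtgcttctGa
Within these 60 bases Acta1 differed from Acta2 at 8, Actg2 at 11 and Actc1 at 12. Of all 50-base windows of the 2035-base Acta2 transcript, 0.352% were also, base for base, in a transcript of 1 of the 5 relatives. Few reads of that length would thus match both exactly. Windows that match with some bases changed were not counted. The part of reads from relatives in the Acta2 counts was not tested. The longest run shared with Acta1 or Actg2 was 29 bases, with Actc1 23, with Actb 47 and with Actg1 56.

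Levels are given as CPM, the reads of a gene scaled to a common total for all genes of a library, over 36269261 to 51017058 reads a library. A gene with 0 reads could be at up to 3 reads, which is 0.0588 to 0.0827 CPM, and such limits cover counting error only. Genes of the mitochondrial genome took 17.2% to 22.4% of the reads. A gene was called changed when limma, fitted to log2(CPM + 1) over all genes, gave a Benjamini-Hochberg adjusted p under 0.05, and every log2 fold change below is on that scale. By that rule 838 genes (4.99%) changed in RH/RQ vehicle against RH/+, with 585 (3.48%) higher and 253 (1.51%) lower, or 534 and 400 with TMM scaling. Between treated and vehicle RH/RQ hearts 344 genes (2.05%) changed, with 205 (1.22%) higher and 139 (0.827%) lower, or 168 and 199 with TMM scaling. Between treated RH/RQ and RH/+ vehicle hearts 480 genes (2.86%) changed, with 391 (2.33%) higher and 89 (0.53%) lower, or 240 and 170 with TMM scaling. The 3 comparisons share libraries. The summed level of 10 heart muscle genes was 48477 to 56334 CPM in every library, as the label heart requires.

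Acta2 RNA was less than 0.5 of its RH/+ level in RH/RQ hearts, with or without treatment. Acta2, the smooth muscle alpha actin, lies on chromosome 19 at 34241090 to 34255590, minus strand (ENSMUSG00000035783.9). It was at 242 and 191 CPM in the RH/+ vehicle hearts, at 71.3 and 98.0 CPM in the RH/RQ vehicle hearts, and at 73.5 and 76.2 CPM in the treated RH/RQ hearts. Both RH/+ libraries were above all 4 RH/RQ libraries, and the treated and vehicle RH/RQ libraries overlapped. The group means were 216 ± 36.2, 84.7 ± 18.8 and 74.8 ± 1.92 CPM (SD, n = 2 each), from 2664 to 9213 reads a library. RH/+ hearts had 2.55-fold more Acta2 than RH/RQ vehicle hearts, and the log2 fold change in RH/RQ was -1.35 with a 95% interval of -1.61 to -1.10 (SE 0.12, limma adjusted p = 1.32e-07). They had 2.89-fold more than treated RH/RQ hearts, and here it was -1.51 with an interval of -1.76 to -1.25 (SE 0.12, limma adjusted p = 4.77e-08). In these bulk samples, fewer Acta2-expressing cells and less Acta2 RNA per cell cannot be told apart.

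Treatment left Acta2 without a detected change. The treated RH/RQ hearts differed from the vehicle RH/RQ hearts by -0.16 on the log2 scale (95% interval -0.41 to 0.10, SE 0.12, limma adjusted p = 0.653), and the interval reaches neither the RH/+ level nor a rise above 0.10. Leaving out the second RH/RQ vehicle library turned the sign of this small difference, to 0.07. In the authors' deposited tables the log2 fold changes of Acta2 were -1.4, -0.24 and -1.64 in the same 3 comparisons, with adjusted p-values of 0.000836, 0.847 and 3.58e-36. The edgeR quasi-likelihood test on recovered reads gave adjusted p = 1.75e-07 for RH/RQ vehicle and 2.9e-08 for treated RH/RQ against RH/+. Over all alternatives the RH/RQ vehicle fall had an adjusted p of 1.63e-11 to 0.0629 and the treated fall 2.11e-13 to 0.121, and only the fit with no filter on low genes went above 0.05. Sex-linked transcripts gave the RH/RQ vehicle libraries a male pattern (Xist below 0.3 CPM) and the other 4 a female one (Xist at 265 to 326 CPM). For every gene, group and sex thus cannot be told apart in RH/RQ vehicle against RH/+ or with treatment. Treated RH/RQ and RH/+ hearts shared the female pattern but differed in both genotype and virus, with an Acta2 log2 fold change of -1.51. The parts of sex, genotype and virus in the Acta2 differences were not tested.

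**Figure D1:**
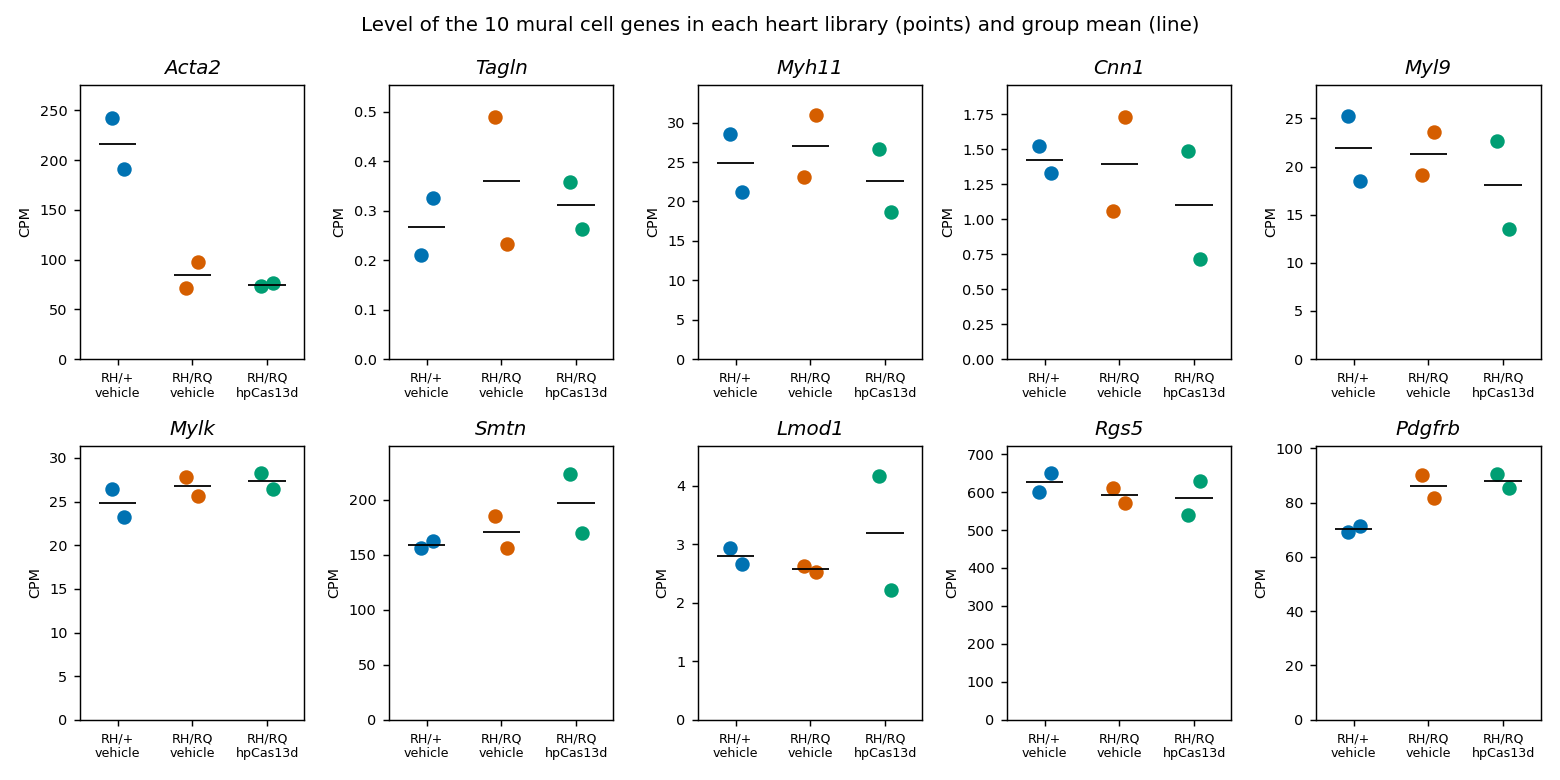
CPM of each of the 10 genes (vertical axis, linear, starting at 0) in every library (points) by group (RH/+ vehicle, RH/RQ vehicle, treated RH/RQ), with the mean of the 2 libraries as a line. Acta2 at 242 and 191 CPM in RH/+ stands above its 4 RH/RQ libraries at 71.3 to 98.0 CPM, while most other genes overlap across groups.

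With all libraries, limma called none of the other contractile members in any comparison. Tagln encodes transgelin, an actin-binding protein that is among the most used smooth muscle markers. It was near the limit of detection, at 0.210 and 0.326 CPM in RH/+ hearts, 0.490 and 0.232 CPM in RH/RQ vehicle hearts, and 0.358 and 0.264 CPM in treated hearts, or 8 to 25 reads a library. The groups overlapped, and Tagln had log2 fold changes of 0.10, -0.05 and 0.05 (limma adjusted p = 0.829, 0.943 and 0.924, from RH/RQ vehicle against RH/+ to treated RH/RQ against RH/+). In the annotation, Tagln (chromosome 9, 45929619 to 45936058, minus strand) shares 1349 of its 1988 exonic bases with other genes and keeps 32.1% to itself. The opposite-strand gene Gm48529 covers 62.4% of its exons and stood at 0.184 to 0.644 CPM, and Pcsk7, at 19.2 to 27.1 CPM, covers 5.43%. The strand setting of the counting is not given in the sources used here, and the part of this overlap in the low Tagln counts was not tested.

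Myosin itself did not follow Acta2. Myh11 encodes the smooth muscle myosin heavy chain, the motor of the contractile apparatus (chromosome 16, 14194535 to 14291372, minus strand). Its levels were 28.5 and 21.2 CPM in RH/+ hearts, 23.1 and 31.0 CPM in RH/RQ vehicle hearts, and 26.7 and 18.6 CPM in treated hearts. Libraries of 1 group differed by more than the group means did, and all groups overlapped. The log2 fold change was 0.12 in RH/RQ vehicle against RH/+ (95% interval -0.21 to 0.45, limma adjusted p = 0.779), -0.25 with treatment (-0.59 to 0.08, adjusted p = 0.56) and -0.13 in treated RH/RQ against RH/+ (-0.47 to 0.20, adjusted p = 0.747). These intervals leave out a fall of the size of that of Acta2. Myl9, the regulatory light chain that the kinase phosphorylates (chromosome 2, 156775420 to 156781658, plus strand), was at 25.3 and 18.5, 19.1 and 23.6, and 22.7 and 13.5 CPM in the same order of groups. Again the groups overlapped, with log2 fold changes of -0.03, -0.26 and -0.29 (limma adjusted p = 0.964, 0.589 and 0.463). Without the first treated library, the treated hearts were called lower than RH/+ (log2 fold change -0.64, adjusted p = 0.0484).

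Mylk encodes the myosin light chain kinase of smooth muscle (chromosome 16, 34745210 to 35002420, plus strand). It varied least of the contractile members, at 26.5 and 23.2 CPM in RH/+ hearts, 27.8 and 25.7 CPM in RH/RQ vehicle hearts, and 28.3 and 26.4 CPM in treated hearts. The RH/+ and RH/RQ ranges overlapped, and the log2 fold changes were 0.10, 0.03 and 0.14 (limma adjusted p = 0.719, 0.948 and 0.633). Cnn1, the calponin that binds actin and restrains the myosin motor (chromosome 9, 22099216 to 22109630, plus strand), was low, at 0.712 to 1.73 CPM over the 6 libraries. Its groups overlapped, with log2 fold changes of -0.03, -0.20 and -0.23 (limma adjusted p = 0.961, 0.75 and 0.632). For genes as low as Cnn1 and Tagln this scale understates a change, so a change of modest size in them was not detectable.

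Smtn and Lmod1 encode proteins of the actin filament, smoothelin and a leiomodin. Smtn (chromosome 11, 3517523 to 3540612, minus strand, 16.3% of its exonic bases shared with Gm11946) was at 156 and 162 CPM in RH/+ hearts, 185 and 156 CPM in RH/RQ vehicle hearts, and 223 and 170 CPM in treated hearts. The treated libraries were both above the RH/+ libraries, mainly through the first treated library. The log2 fold change of treated RH/RQ against RH/+ was 0.29 (95% interval 0.06 to 0.52), with an unadjusted limma p of 0.0161 and an adjusted p of 0.196. Without the second treated library Smtn was called higher in treated hearts than in RH/+ hearts (0.49, adjusted p = 0.00755) and than in RH/RQ vehicle hearts (0.39, adjusted p = 0.0336). With all libraries the log2 fold change was 0.20 with treatment (adjusted p = 0.499) and 0.09 in RH/RQ vehicle against RH/+ (adjusted p = 0.744). Lmod1 (chromosome 1, 135324807 to 135368065, plus strand) was at 2.94 and 2.66, 2.63 and 2.53, and 4.16 and 2.21 CPM in the same order of groups. The RH/RQ vehicle libraries lay just under the RH/+ libraries and the treated libraries spanned both, with log2 fold changes of -0.09, 0.19 and 0.10 (limma adjusted p = 0.891, 0.771 and 0.863).

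The pericyte genes were among the more abundant members and did not fall with Acta2. Rgs5 encodes a regulator of G protein signalling that marks pericytes (chromosome 1, 169655501 to 169695813, plus strand). It was at 601 and 651 CPM in RH/+ hearts, 612 and 571 CPM in RH/RQ vehicle hearts, and 539 and 628 CPM in treated hearts. All groups overlapped, with log2 fold changes of -0.08, -0.02 and -0.11 (limma adjusted p = 0.758, 0.958 and 0.684). Pdgfrb encodes the receptor through which endothelial PDGF-B recruits mural cells, and fibroblasts carry it too (chromosome 18, 61045150 to 61085061, plus strand). Its levels were 69.0 and 71.3 CPM in RH/+ hearts, 90.1 and 81.8 CPM in RH/RQ vehicle hearts, and 90.7 and 85.3 CPM in treated hearts. All 4 RH/RQ libraries were above both RH/+ libraries. The RH/RQ vehicle mean was 1.23-fold and the treated mean 1.25-fold that of RH/+, with log2 fold changes of 0.29 (SE 0.09, 95% interval 0.09 to 0.48) and 0.32 (SE 0.09, 95% interval 0.13 to 0.52). Neither passed the test (limma adjusted p = 0.088 and 0.0706), and treatment itself gave 0.03 (adjusted p = 0.929). The RH/RQ vehicle difference passed when the 4 libraries compared were fitted alone (adjusted p = 0.0481), without the first or second treated library (0.0424 and 0.0413), and with CPM over nuclear genes (0.0377). The treated difference passed without the second treated library (0.0456).

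Over the whole set, 1 of 10 members was called lower and 0 higher in RH/RQ vehicle against RH/+, beside 4.99% of all genes called, 3.48% higher and 1.51% lower. With treatment 0 of 10 were called, beside 2.05% of all genes (1.22% higher, 0.827% lower), and 0 had an unadjusted limma p under 0.05; edgeR and DESeq2 called none there either. In treated RH/RQ against RH/+ hearts 1 of 10 was called lower and 0 higher, beside 2.86% of all genes, 2.33% higher and 0.53% lower. In both comparisons with RH/+ the called member was Acta2. The members' median log2 fold changes were 0.03, -0.04 and -0.03, beside 0.04, 0.04 and 0.08 over all genes tested. Libraries of the 2 groups did not overlap for Acta2, Lmod1 and Pdgfrb in the first comparison, a pattern that 49.3% of all genes showed. They overlapped for all 10 in the second, where 40.5% of genes did not overlap, and were apart for Acta2, Smtn and Pdgfrb in the third, where 44.7% did not. With 2 libraries a group, such separation is common and carries little by itself.

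**Figure D2:**
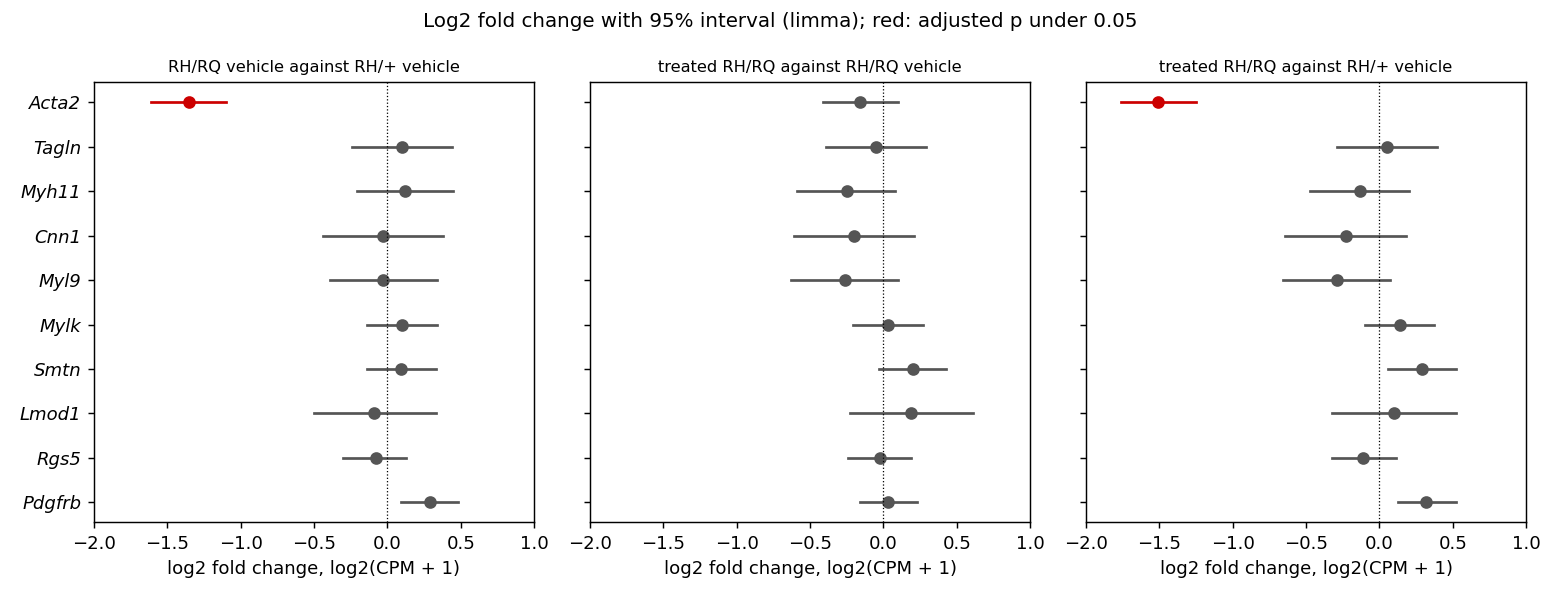
Log2 fold change on the log2(CPM + 1) scale (horizontal axis) of each gene (vertical axis) in the 3 comparisons, with the 95% interval from limma as a bar and calls in red. Acta2 at -1.35 and -1.51 in the comparisons with RH/+ is the only gene in red, and the interval of Pdgfrb lies above 0 in both.

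Per kilobase of exon, Rgs5 was the most abundant member and Tagln the least. Rgs5 stood at 118 to 143 CPM per kb over the 6 libraries, above every other member. Acta2 came next at 98.5 ± 16.5 CPM per kb in RH/+ hearts and dropped to 38.6 ± 8.58 and 34.1 ± 0.876 CPM per kb in RH/RQ vehicle and treated hearts (SD, n = 2 each). In the RH/RQ groups its range overlapped that of Smtn, which was at 35.6 to 51.0 CPM per kb. Myl9 (11.6 to 21.8 CPM per kb) and Pdgfrb (12.6 to 16.6) followed and overlapped each other. Myh11 (2.45 to 4.08 CPM per kb) and Mylk (2.06 to 2.51) formed the next overlapping pair, then Lmod1 (0.561 to 1.05) and Cnn1 (0.260 to 0.631). Tagln was last at 0.106 to 0.246 CPM per kb. That value is over all its exonic bases, of which 32.1% are not shared with other genes. The part of this overlap in its last place was not tested. Exon lengths are those of all annotated isoforms together, so a gene whose long isoforms are rare would be placed too low. The use of isoforms was not tested.

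The ratio of Acta2 to another mural gene within a library does not depend on the depth or scaling of that library. The ratio to Myh11 was 8.50 and 9.01 in RH/+ hearts, 3.09 and 3.16 in RH/RQ vehicle hearts, and 2.75 and 4.10 in treated hearts. Against Myl9 it was 9.56 and 10.3, 3.73 and 4.15, and 3.24 and 5.64, and against Mylk 9.12 and 8.20, 2.57 and 3.81, and 2.59 and 2.88. Both RH/+ libraries were above all 4 RH/RQ libraries in each of these ratios, and the treated and vehicle ratios overlapped. Against the pericyte gene Rgs5 the ratio was 0.402 and 0.293 in RH/+, 0.117 and 0.172 in RH/RQ vehicle, and 0.136 and 0.121 in treated hearts. Against Pdgfrb it was 3.51 and 2.68, 0.792 and 1.20, and 0.809 and 0.893. An exact two-sided permutation test of 2 libraries against 2 cannot go below p = 0.333, so these ratios are a description. The other 7 contractile genes together stood at 241 and 229 CPM in RH/+, then 259 and 241 CPM in RH/RQ vehicle, and 307 and 232 CPM in treated hearts, with groups that overlapped. Most of this sum was Smtn, at 156 and 162, 185 and 156, and 223 and 170 CPM in the same order of groups.

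**Figure D3:**
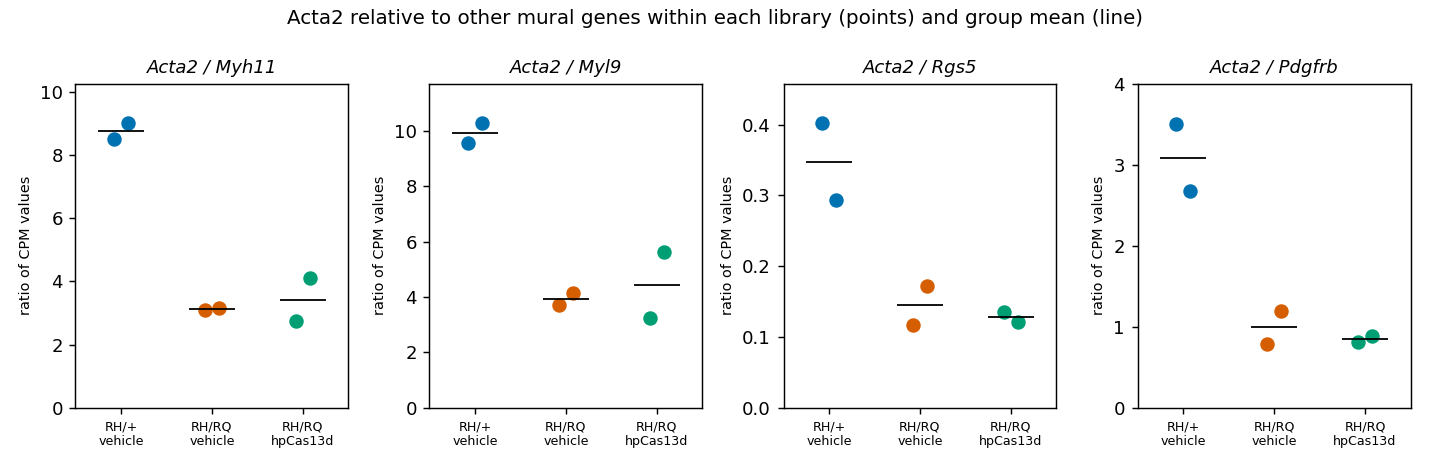
Ratio of the CPM of Acta2 to that of Myh11, Myl9, Rgs5 and Pdgfrb (vertical axes, linear, starting at 0) in each library (points) by group, with the group mean as a line. In each panel both RH/+ points lie above the 4 RH/RQ points, at 8.50 and 9.01 against 2.75 to 4.10 for Myh11.

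Across the 6 libraries Myh11 moved with Myl9 and Cnn1, and less with Acta2 and the other contractile members. On log2(CPM + 1), Pearson's r with Myh11 was 0.94 for Myl9 and 0.90 for Cnn1, but 0.20 for Acta2. It was 0.43 for Lmod1, 0.23 for Mylk, -0.06 for Smtn and -0.31 for Tagln. Pdgfrb ran opposite to Acta2, with r = -0.98. Acta2 separated the RH/+ group from both others, whereas Myh11, Myl9 and Cnn1 differed within groups, each being higher in the first than in the second RH/+ and treated libraries and lower in the first RH/RQ vehicle library. These coefficients describe 6 libraries that share their groups and have no test.

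Outside the members, the genes whose levels were most like those of Acta2 were not mural markers on the lists used here. The members were left out of this ranking, and the highest r of a member with Acta2 was 0.41, for Cnn1. Among the 12289 tested genes that averaged 1 CPM or more, the 10 with the highest Pearson r over the 6 libraries included Rtn4r (0.989), Mylk4 (0.979), Mars2 (0.979), Egln3 (0.978), Ung (0.969), Slc52a3 (0.968), Pla2g5 (0.962) and Unc45b (0.954). Rtn4r encodes a receptor for myelin proteins. It was at 20.2 and 14.3 CPM in RH/+ hearts, 6.39 and 8.35 CPM in RH/RQ vehicle hearts, and 7.39 and 6.54 CPM in treated hearts. Mylk4, a light chain kinase of striated muscle, was at 210 and 191, 80.1 and 82.7, and 80.3 and 74.7 CPM. In these genes, as in Acta2, both RH/+ libraries were above every RH/RQ library. Of the genes named, 4 were called lower by limma in both comparisons with RH/+ and were not called with treatment: Rtn4r (log2 fold changes -1.12 and -1.18), Mylk4 (-1.29 and -1.36), Egln3 (-0.57 and -0.64), a prolyl hydroxylase that oxygen controls, and Pla2g5 (-0.58 and -0.63), a secreted phospholipase. The Pla2g5 call in RH/RQ vehicle against RH/+ was lost without the second RH/+ library (adjusted p = 0.0565). These genes were picked for their likeness, so their calls are a description.

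Relatives of the members took their own courses. Among the other 5 actins, Acta1 rose, from 532 and 651 CPM in RH/+ hearts to 1094 and 1376 CPM in RH/RQ vehicle hearts and 1049 and 1004 CPM in treated hearts. All 4 RH/RQ libraries were above both RH/+ libraries, the opposite of Acta2, with log2 fold changes of 1.06 and 0.80 (limma adjusted p = 3.87e-06 and 0.000278). Treatment gave a log2 fold change of -0.26 in Acta1 (adjusted p = 0.387). Actc1, the main actin of adult heart muscle, was at 14392 and 14953, 12664 and 12311, and 12772 and 12871 CPM. It was lower in all 4 RH/RQ libraries, and limma did not call it (log2 fold changes -0.23 and -0.19, adjusted p = 0.624 and 0.709), whereas DESeq2 did (adjusted p = 0.0151 and 0.0132). The ratio of Acta2 to Acta1 was 0.455 and 0.293 in RH/+ hearts and 0.0652 to 0.0759 in the 4 RH/RQ libraries. Actb was at 338 and 340, 431 and 398, and 376 and 313 CPM and Actg1 at 157 to 208 CPM, and limma called neither. DESeq2 called Actb lower with treatment (adjusted p = 0.0308), as did limma without the first treated library (0.0345), and 4 of 17 alternatives called it higher in RH/RQ vehicle against RH/+ (0.0271 to 0.0349), among them the fits without either treated library. Actg2, the other smooth muscle actin, was near the limit of detection at 0.0551 to 0.567 CPM and was not called by limma.

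Of 16 paralogues of the other members, 14 were tested. In RH/RQ vehicle against RH/+ hearts 2 were called lower and 0 higher, beside 1.51% and 3.48% of all genes. The 2 were Mylk4 (above) and Mylk3, the cardiac light chain kinase. Mylk3 went from 580 and 618 CPM in RH/+ to 398 and 396 CPM in RH/RQ vehicle and was at 534 and 614 CPM in treated hearts. It thus fell by 0.59 on the log2 scale in RH/RQ vehicle (limma adjusted p = 0.000529) and rose by 0.53 with treatment (adjusted p = 0.00348), where it was the 1 paralogue that limma called. Without the second RH/RQ vehicle library that rise was lost (adjusted p = 0.0589). Treated and RH/+ libraries overlapped for Mylk3 (log2 fold change -0.06, limma adjusted p = 0.818), and both had high Xist. In the other comparisons sex differed along with the group, for every gene. The part of sex in the Mylk3 differences, and in those of other genes described as changed with treatment, was not tested. Rgs4, a paralogue of Rgs5, was called lower with treatment by edgeR and DESeq2 (adjusted p = 0.0122 and 0.00677) but not by limma (0.0651). In treated RH/RQ against RH/+, Mylk4 was lower and Pdgfra higher (0.43, limma adjusted p = 0.0182). Over all genes 0.53% were called lower and 2.33% higher there. Pdgfra, the PDGF receptor of fibroblasts, was at 52.2 and 57.4, 72.2 and 62.2, and 76.2 and 72.3 CPM. The Pdgfra call was lost with edgeR (adjusted p = 0.0973), DESeq2 (0.0569), and without the first RH/+ library (0.293) or the first treated library (0.0871).

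A further 16 smooth muscle genes showed no shift as a group, with median log2 fold changes of 0.05, -0.09 and 0.03 beside 0.04, 0.04 and 0.08 over all genes. Pcp4l1, a small relative of the calmodulin regulator Pcp4, was at 283 and 254 CPM in RH/+, then 174 and 158 CPM in RH/RQ vehicle, and 208 and 201 CPM in treated hearts. By limma it was the 1 gene of the 16 called lower in RH/RQ vehicle (-0.69, limma adjusted p = 3.95e-05) and in treated hearts against RH/+ (-0.39, adjusted p = 0.0207; 0.393 without the first RH/+ library). Ramp1, a partner of the receptor for the vasodilator CGRP, was at 6.01 and 6.29, 4.88 and 2.94, and 5.54 and 5.43 CPM. Limma did not call it lower in RH/RQ vehicle (-0.57, adjusted p = 0.0846), but edgeR did (0.0432), as did limma without the first RH/RQ vehicle library (-0.86, adjusted p = 0.0173). Of the 16, 1 was thus called lower in each comparison with RH/+, beside 1.51% and 0.53% of all genes. In RH/RQ vehicle 2 of the 16 were called higher, beside 3.48% of all genes. These were Cald1, caldesmon (57.3 and 61.7 CPM in RH/+, then 78.6 and 72.8 CPM in RH/RQ vehicle), and Flna, the actin cross-linker filamin A (136 and 144 against 181 and 173 CPM), each by 0.34. Both calls were lost with edgeR (adjusted p = 0.0804 and 0.0974) and without any 1 of the 4 libraries compared (0.0931 to 0.413 and 0.109 to 0.35). With treatment limma called 0 of the 16, beside 2.05% of all genes. Of the 16, 5 had an unadjusted p under 0.05, while edgeR called 0 and DESeq2 called 1. Tropomyosin Tpm2, at 24.6 and 18.0, 20.0 and 20.4, and 21.3 and 15.2 CPM, overlapped across all groups.

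Genes that set light chain phosphorylation were called by limma only in the comparisons with RH/+. Of 15 such genes, 2 were called higher in RH/RQ vehicle, beside 3.48% of all genes. With treatment 0 were called, beside 2.05% of all genes, with 0 at an unadjusted p under 0.05, and 0 by edgeR and DESeq2. In treated RH/RQ against RH/+ 1 was higher, beside 2.33% of all genes. The medians were 0.06, 0.01 and 0.10. Prkg1, the cGMP-dependent kinase that relaxes smooth muscle, was at 8.93 and 9.75 CPM in RH/+, then 14.3 and 14.1 CPM in RH/RQ vehicle, and 12.6 and 13.8 CPM in treated hearts. Its rise of 0.56 in RH/RQ vehicle (limma adjusted p = 0.0173) was lost without any 1 of the 4 libraries compared (adjusted p = 0.0589 to 0.209). Myl12a, a non-muscle regulatory light chain, was at 237 and 241, 299 and 297, and 347 and 308 CPM. It was higher by 0.32 in RH/RQ vehicle (adjusted p = 0.0488) and by 0.45 in treated hearts (adjusted p = 0.00681). With edgeR neither Myl12a call held (adjusted p = 0.145 and 0.0877); the first was lost without any 1 of the 4 libraries (0.218 to 0.336), the second without the first or second RH/+ library (0.0998 and 0.0514).

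Of the listed regulators of smooth muscle genes, with serum response factor and myocardin among them, limma called none lower. Srf, serum response factor, was at 101 and 107 CPM in RH/+, then 88.2 and 96.4 CPM in RH/RQ vehicle, and 102 and 90.4 CPM in treated hearts, with log2 fold changes of -0.17, 0.06 and -0.12 (limma adjusted p = 0.379, 0.871 and 0.616). Myocd, myocardin, was at 34.3 and 40.6, 39.3 and 44.1, and 34.2 and 38.1 CPM, with 0.16, -0.20 and -0.04 (adjusted p = 0.531, 0.498 and 0.899). The RH/+ and RH/RQ libraries of Myocd overlapped. For Srf, both RH/RQ vehicle libraries were below both RH/+ libraries, and the treated ones overlapped RH/+. Of the 10 regulators 1 was called in RH/RQ vehicle, beside 4.99% of all genes. It was Tead1, a partner in muscle gene control, higher by 0.34 (197 and 182 against 233 and 248 CPM, limma adjusted p = 0.0398). That call was lost with edgeR (0.14), DESeq2 (0.108) and without any 1 of the 4 libraries (0.104 to 0.323). With treatment, and in treated RH/RQ against RH/+, 0 of 10 were called, beside 2.05% and 2.86% of all genes. There 1 and 2 had an unadjusted p under 0.05, and edgeR and DESeq2 called 0 as well.

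Pericyte genes other than the members gave no common direction either, with medians of 0.07, -0.02 and 0.03 over 16 genes. Over all genes 1.51% were called lower in RH/RQ vehicle and 1.22% higher with treatment. Abcc9, a subunit of the ATP-sensitive potassium channel that heart muscle also makes, was the 1 gene of the 16 called. It was at 363 and 374 CPM in RH/+, then 278 and 263 CPM in RH/RQ vehicle, and 321 and 392 CPM in treated hearts. It was lower in RH/RQ vehicle (-0.44, limma adjusted p = 0.00893), a call that was lost without the second RH/+ library (0.0816) or the second RH/RQ vehicle library (0.101). Its rise of 0.39 with treatment (adjusted p = 0.0428) was lost with edgeR (0.151), DESeq2 (0.0797) and without either RH/RQ vehicle library (0.102 and 0.399) or the second treated one (0.167). Kcnj8, the pore of the same channel in mural cells, was at 44.4 to 55 CPM and overlapped across groups. Cspg4, the NG2 proteoglycan of pericytes, resembled Pdgfrb, at 17.7 and 24.0 CPM in RH/+, then 28.8 and 27.7 CPM in RH/RQ vehicle, and 29.4 and 26.4 CPM in treated hearts. Its log2 fold changes against RH/+ were 0.44 and 0.42 (limma adjusted p = 0.0539 and 0.0896), and 8 of 17 alternatives called the first, among them the fit without the second RH/+ library (0.64, adjusted p = 0.0106), which also called the second (0.62, adjusted p = 0.0192). Rgs4 was at 25.7 and 21.5 CPM in RH/RQ vehicle and 16.7 and 17.3 CPM in treated hearts (-0.45, limma adjusted p = 0.0651).

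Some genes of signalling to mural cells, or between them and the endothelium, were called. In RH/RQ vehicle against RH/+ hearts 3 of 23 were called higher and 0 lower, beside 3.48% and 1.51% of all genes. Tgfb2 went from 14.1 and 15.1 CPM up to 22.7 and 19.7 CPM (0.51) and Tgfb3 from 13.8 and 15.4 to 22.0 and 22.5 CPM (0.58), both ligands of the TGF-beta family, which drives smooth muscle genes. Ednrb, an endothelin receptor, went from 14.6 and 19.5 to 25.7 and 24.9 CPM (0.56). Their limma adjusted p-values were 0.0173, 0.00905 and 0.0124. Without the first RH/+ library all of these calls were lost (adjusted p = 0.2, 0.137 and 0.39). Tgfb2 was also lost without the second RH/+ (0.0611) or first RH/RQ vehicle library (0.215), Tgfb3 without the second RH/RQ vehicle library (0.0594), and Ednrb without the first (0.0735). Pdgfb, the ligand of Pdgfrb, was at 45.4 and 46.9, 63.3 and 58.9, and 54.6 and 38.3 CPM and was not called (0.40 and adjusted p = 0.0671 in RH/RQ vehicle, -0.41 and 0.0983 with treatment). Alternatives called Pdgfb 5 and 7 times of 17 in these comparisons, among them the fits without the first treated library (adjusted p = 0.0071 and 0.00112).

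With treatment 2 of the 23 were called higher and 1 lower, beside 1.22% and 0.827% of all genes. In treated RH/RQ against RH/+ 1 was called higher and 1 lower, beside 2.33% and 0.53% of all genes. S1pr1, a sphingosine phosphate receptor of endothelium, was at 61.3 and 63.8 CPM in RH/+, then 62.6 and 59.8 CPM in RH/RQ vehicle, and 101 and 95.6 CPM in treated hearts. It was higher in treated hearts than in either other group (0.68 and 0.64, limma adjusted p = 0.00012 and 0.000195). Angpt1, the mural ligand of the endothelial receptor Tek, was at 15.6 and 18.0, 16.8 and 15.1, and 9.29 and 10.2 CPM. It was lower in treated hearts than in RH/RQ vehicle hearts (-0.65, adjusted p = 0.00935) and than in RH/+ hearts (-0.73, adjusted p = 0.00295). An opposite-strand gene, Gm17473, covers 14.2% of its exons. The first Angpt1 call was lost without the first RH/RQ vehicle (0.0862) or first treated library (0.0615), the second without the second RH/+ library (0.0639). Agtr1a, the angiotensin receptor that constricts vessels, was at 37.2 and 32.0, 30.3 and 25.8, and 41.4 and 37.3 CPM. It was higher with treatment (0.48, adjusted p = 0.0286), a call lost without the second RH/RQ vehicle (0.431) or first treated library (0.182). Limma called S1pr1 and Angpt1, and no other of the 23, in treated RH/RQ against RH/+, and without the second treated library it also called Tgfb3 (0.53, adjusted p = 0.0343).

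**Figure D4:**
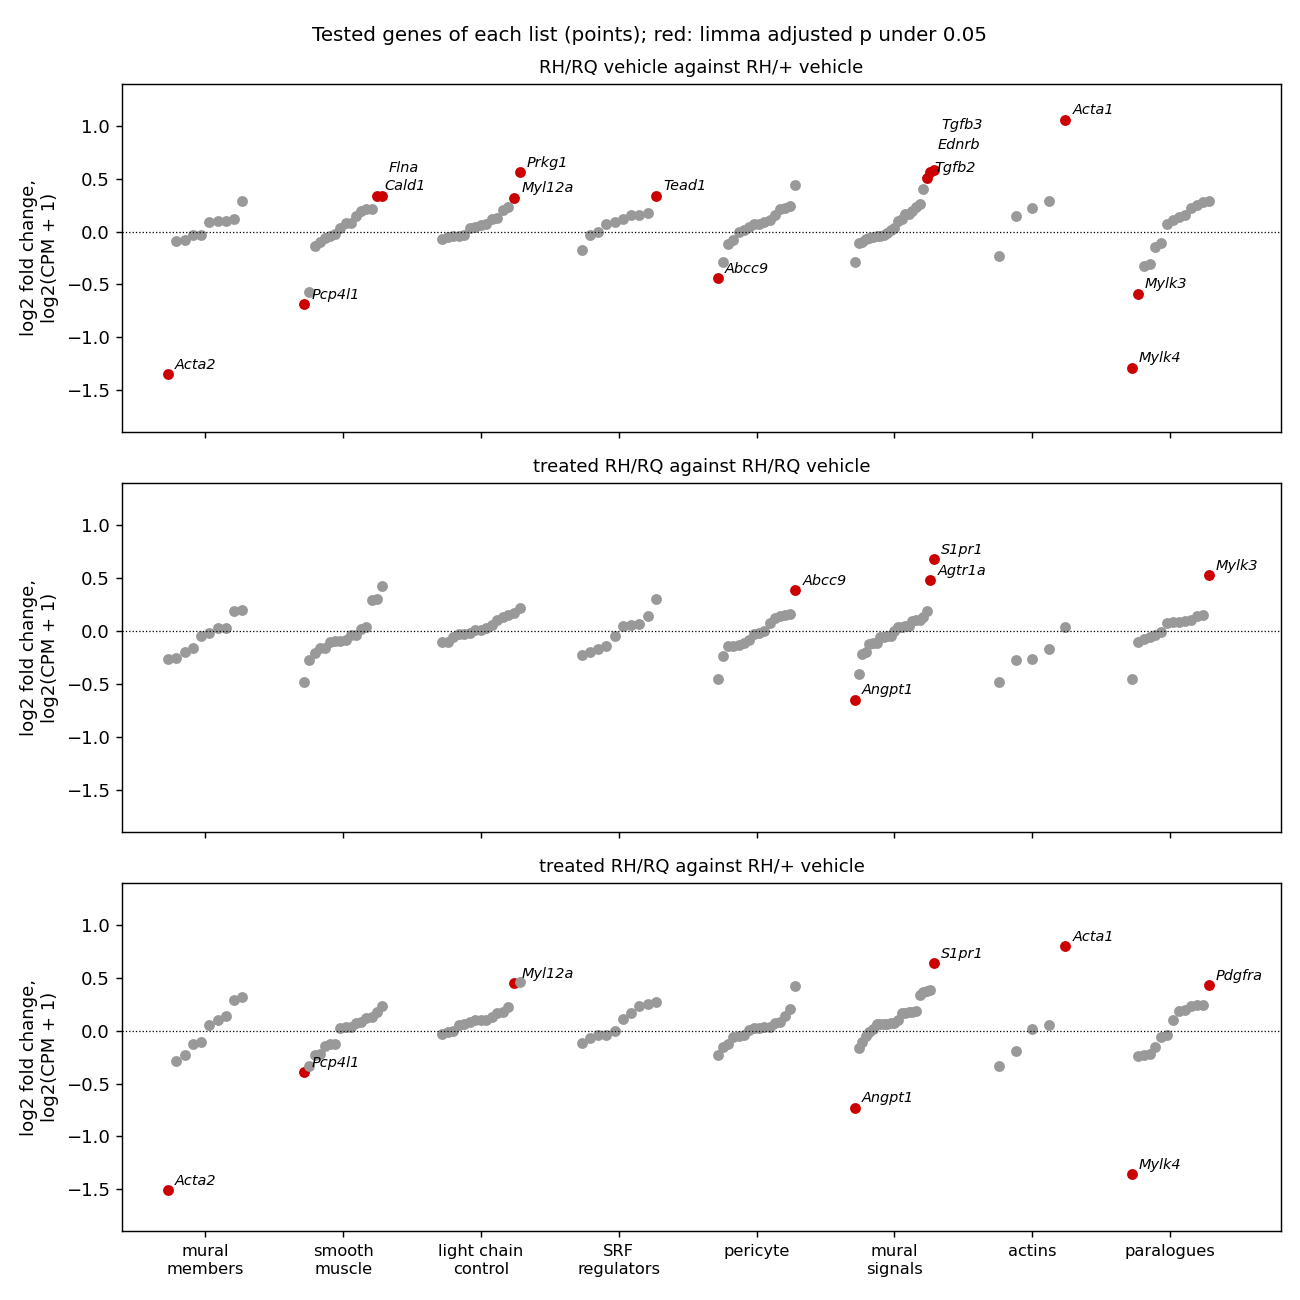
Log2 fold change on the log2(CPM + 1) scale (vertical axis) of each tested gene (points) by list (horizontal axis, genes sorted within a list) in the 3 comparisons, with limma calls in red and named. The points of most lists lie around 0, and Acta2 at -1.35 and -1.51 and Mylk4 at -1.29 and -1.36 lie lowest among the lists plotted in the comparisons with RH/+.

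Markers of other cell types moved with the groups in part. Their counts, here and in the next paragraph, stand beside these shares of all genes. In RH/RQ vehicle against RH/+ 3.48% were called higher and 1.51% lower. With treatment the shares were 1.22% and 0.827%, and in treated RH/RQ against RH/+ 2.33% and 0.53%. The 8 markers of activated fibroblasts summed to 213 and 244 CPM in RH/+ hearts, 509 and 524 CPM in RH/RQ vehicle hearts, and 309 and 295 CPM in treated hearts. They ran against Acta2 from RH/+ to RH/RQ hearts, whereas with treatment their sum fell and Acta2 showed no detected change. Of the 7 tested, 5 were higher in RH/RQ vehicle, 2 were lower with treatment, and 4 were higher in treated RH/RQ than in RH/+. Of these 4, the call on Comp was lost with DESeq2 (adjusted p = 0.142). That on Col1a1 was lost with edgeR (adjusted p = 0.0781), DESeq2 (0.0806) and without the first RH/+ or first treated library. The 8 fibroblast markers summed to 2205 and 2619, 3115 and 2912, and 3831 and 3270 CPM, with 3 higher, 1 lower and 5 higher in the 3 comparisons. The call on Dcn in the first was lost without the first RH/RQ vehicle library (0.0566). Of the 5, edgeR did not call Pdgfra, Dpt and Gsn (adjusted p = 0.0973, 0.0583 and 0.066), and limma lost each without the first RH/+ library (0.293, 0.129 and 0.523) or the first treated library (0.0871, 0.16 and 0.109). The 9 macrophage markers summed to 220 and 229, 303 and 289, and 281 and 244 CPM, with 4 higher in RH/RQ vehicle and 0 called in the others by limma, where 2 and 4 had an unadjusted p under 0.05. Of the 4 macrophage calls, Adgre1 (0.0862 to 0.274) and Fcgr1 (0.0853 to 0.278) lost their call whichever of the 4 libraries was left out, and Mrc1 lost it without the first RH/RQ vehicle library (0.0518). None of these lists had a marker at 0 in any library.

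The 10 endothelial markers summed to 1808 to 2085 CPM and the 10 heart muscle markers to 48477 to 56334 CPM, with 0 called in any comparison by limma; 4 endothelial tests and 4 heart muscle tests over the 3 comparisons had an unadjusted p under 0.05. The 6 arterial endothelial markers summed to 83.3 to 104 CPM, with Hey1 lower with treatment, a call lost without the first RH/RQ vehicle (adjusted p = 0.136) or second treated library (0.0617). The 6 elastic fibre genes, made by smooth muscle and fibroblasts, summed to 440 and 515, 551 and 563, and 683 and 586 CPM, with 3 higher, 1 lower and 3 higher. Of the last 3, edgeR and DESeq2 called neither Fbn1 (adjusted p = 0.101 and 0.0671) nor Ltbp4 (0.228 and 0.155), and without the first RH/+ library limma lost both (0.264 and 0.571). Fbn1 was also lost there without the second RH/+ library (0.0628), and Ltbp4 without the first treated library (0.25). The 1 lower call, Fbn1 with treatment, was lost without the first RH/RQ vehicle (0.167) or first treated library (0.0517). The 7 adipocyte markers summed to 1.79 and 15.4 CPM in RH/+ and 0.0516 to 1.16 CPM elsewhere, with 6 of 7 at 0 in some library, and limma called all 3 tested lower in RH/RQ vehicle. Without the second RH/+ library the calls on Plin1 and Cfd were lost (adjusted p = 0.51 and 0.731). Plin1 was also lost without the first or second RH/RQ vehicle library (0.0892 and 0.103), and Cfd without the second (0.0717). The 4 Schwann cell markers summed to 7.73 to 12.2 CPM. The 6 epicardial markers summed to 25.1 and 21.6 CPM in RH/+ hearts, 20.1 and 28.5 CPM in RH/RQ vehicle hearts, and 17.1 and 14.6 CPM in treated hearts, the lowest values. Their median log2 fold change with treatment was -0.52, where limma called 0 and 4 of 6 had an unadjusted p under 0.05. Msln was called lower in treated RH/RQ against RH/+ (-1.16, adjusted p = 0.0232), but not by DESeq2 (0.376) or without the first RH/+ (0.233) or second treated library (0.171). The 6 atrial markers summed to 113 to 144 CPM in vehicle hearts and to 432 and 756 CPM in treated hearts, with Nppa the 1 gene called. The part of any of these cell types in the Acta2 difference was not tested.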

How the data were processed

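RNA was measured in 6 mouse heart samples, grouped by the genotype and treatment in the labels. The submitters' processing notes list DESeq2, HISAT2, HTSeq and mm10; their versions, roles, strand setting and annotation are not given in the sources used here. The authors deposited 3 full tables of CPM, each with 4 libraries. Per the file headers, these deposited tables also hold a mean normalised signal, a log2 fold change, its standard error and a test score, and p-values. A library in more than 1 table had the same CPM in each (largest difference 0), and 0 sample columns were left over. Every CPM value was a whole multiple of 1 read (100% of values, tolerance 0.001 reads), so reads were recovered.

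Because the deposited unit is CPM, the test was limma 3.58.1 with a trend on log2(CPM + 1) (pseudocount 1) in R 4.3.3, in 1 fit of 3 group means over all 6 libraries. filterByExpr (edgeR 4.0.16, minimum count 10) kept 16804 of 29385 genes, and p-values were adjusted over all of them by Benjamini-Hochberg. The alternatives were edgeR, DESeq2 1.42.0, TMM and RLE factors, CPM over nuclear genes, no filter, a mean of at least 1 CPM, pseudocounts of 0.1 and 5, a replicate block, the 4 libraries compared alone, and leaving out each library. The fits were tested on simulated counts.

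The named genes are the 10 members, the 3 genes with the smallest p in each comparison among each list described (not all were printed), and the 10 genes most correlated with Acta2, of which 2 are not reported here; other called or reference genes were named after their values were seen. The members and lists were chosen with earlier results of these data known. Positions are from GENCODE M21 on GRCm38 and upstream windows from RefSeq on GRCm38.p6. Exonic overlaps were counted over all isoforms.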

Additional observations from a re-analysis of the deposited data

How the results depend on the processing

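The Acta2 differences from RH/+ kept their sign under all 17 alternatives, and the calls held except with no filter on low genes, where the log2 fold changes of -1.35 and -1.51 had limma adjusted p = 0.0629 and 0.121; the cause was not tested. When 1 library was left out, the lone library of its group is assumed to vary like the others. Acta2 then ranged from -1.58 to -1.12 in RH/RQ vehicle against RH/+, from -0.39 to 0.07 with treatment, and from -1.68 to -1.34 in treated RH/RQ against RH/+.

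With no filter on low genes, 57, 15 and 7 genes were called in the 3 comparisons and 0 members in both comparisons with RH/+; of the 25 calls on the plotted lists other than the members, 23 were lost (adjusted p = 0.0616 to 0.397), all but the 2 on Mylk4. Leaving out 1 library gave 393 to 1195, 155 to 661 and 206 to 744 called genes, and 1 to 2, 0 to 1 and 1 to 3 called members. The first count fell to 393 without the first RH/+ library and to 503 and 482 without the first and second RH/RQ vehicle library. The second was 155 without the second RH/RQ vehicle library and 661 without the second treated one. Treated RH/RQ against RH/+ gave 206 without the first RH/+, 300 without the first treated and 744 without the second treated library. CPM over nuclear genes and the fit of 4 libraries each called 2 members in the first comparison, the second being Pdgfrb. Of 456 values of the other members, 10 passed the test and 41 had another sign.

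The first digit of the sample titles, shared across groups, was taken as the replicate number; its meaning is not stated. Deviations of same-numbered libraries correlated at r = 0.13, -0.0205 and 0.0742 over 16804 genes, so pairing was not established. With the replicate block 1173, 567 and 715 genes and 2, 0 and 2 members were called, Pdgfrb being the added one (adjusted p = 0.0483 and 0.0348). Depth limits Tagln, Cnn1 and Actg2, for which few reads were counted.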
